A study of Mus musculus with 6 samples.

Results

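The 10 genes described here encode 3 fibroblast growth factor (FGF) receptors (Fgfr1, Fgfr2 and Fgfr3), 6 FGF ligands known from the hair follicle (Fgf1, Fgf2, Fgf5, Fgf7, Fgf10 and Fgf18) and Fgfbp1, a secreted FGF carrier. Every probe set that the array annotation lists with exactly 1 of these symbols was taken, whatever its signal. The genes themselves were chosen with earlier results of these data known. All 10 genes were measured, of 18193 genes in all, by 19 of the 45037 probe sets on the array. The arrays were hybridized with RNA from epithelial cells of the bulge, the stem cell region of the follicle, from vibrissae (whiskers) of mice aged 7 to 8 weeks, grown for 6 days in 3D gels of atelocollagen at 1%. There were 3 arrays of cells in NFFSE medium and 3 arrays of cells in NFFS medium, from an experiment performed 3 times. The labels call them biological replicates. According to the series design, replicates with the same number were divided from the same cells. The main fit did not use this pairing, and a fit with the replicate number as a block was an alternative. NFFSE medium held Noggin, FGF7, FGF10, the hedgehog agonist SAG and EGF, each at 50 ng/ml, and NFFS medium held the same factors without EGF. Both media therefore supplied FGF7 and FGF10 protein, whereas the arrays measured the RNA that the cells themselves made. All cells of the bulge had been isolated, niche cells included, and the sources name several strains, C57BL/6N among them, without stating which one was used for the arrays.

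FGFs are secreted factors that bind heparan sulfate on the cell surface and join receptor tyrosine kinases into active pairs, which signal through the adaptor FRS2 and the RAS-ERK cascade. In skin, FGF7 and FGF10 come from the mesenchyme and act on the epithelial splice form of FGFR2, while FGF18 keeps follicles at rest and FGF5 ends their growth phase. FGFBP1 lifts FGFs that are held on heparan sulfate and carries them to their receptors. EGF signals through a receptor of its own that feeds the same RAS-ERK cascade.

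The deposited values were MAS5 signals, intensities on a linear scale that the authors had scaled to the same trimmed mean of 500.003 on each array. The median signal was 56.5 to 65.0 in NFFSE and 66.5 to 70.6 in NFFS. Over all genes, the arrays correlated with r between 0.952 and 0.958 within a medium and between 0.912 and 0.929 across media. The epithelial markers were bright on every array, with a summed signal over 10 genes of 120030 to 139400 in NFFSE and 119997 to 130924 in NFFS, although 4 of the 10 were called higher and 3 lower in NFFSE. As a check of the RNA, the log2 difference of the 3' minus the 5' probe set of Gapdh was -0.37 ± 0.011 in NFFSE and -0.62 ± 0.017 in NFFS (SD, n = 3 each; two-sided exact permutation test, p = 0.1, the floor of this exact test at 3 against 3), without overlap between the media. For Actb and Tfrc the same exact test gave p = 0.3 and p = 0.4. This test did not use the pairing of the replicates.

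Across the 10 genes, Fgfbp1 rose in NFFSE-cultured cells, Fgfr1 and Fgfr2 fell, and Fgfr3 and the 6 ligands did not pass the test. With limma, at an adjusted p under 0.05, 1 of the 10 genes was called higher and 2 were called lower in NFFSE. Among all 18193 genes, 2002 (11.0%) were called higher and 2771 (15.2%) lower, so the 10 genes were called about as often as genes in general. When each array was centered on its median signal instead, 3013 genes were called higher and 1974 lower and the median of all genes moved to 0.18 from -0.011 on the log2 scale, but the same 3 members were called in the same directions. At the level of probe sets, 1 of 19 was called higher, where 7.69% of all probe sets were, and 5 of 19 were called lower, where 12.7% were. The median log2 difference over the 10 genes was -0.24 (NFFSE minus NFFS).

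**Figure D1:**
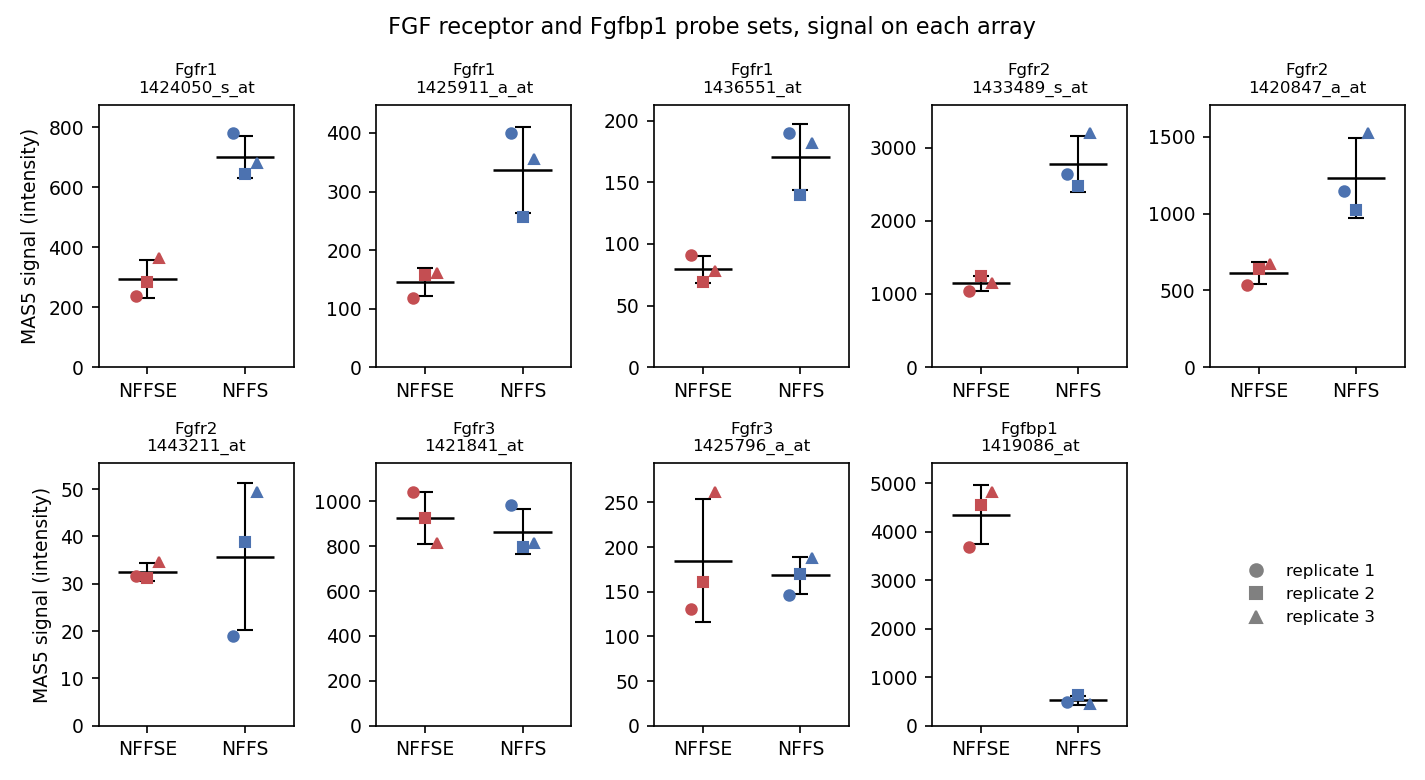
MAS5 signal (linear intensity, y axis starting at 0) of each probe set of Fgfr1, Fgfr2, Fgfr3 and Fgfbp1 on the 3 NFFSE arrays (red, left) and the 3 NFFS arrays (blue, right). Points are single arrays, with a symbol for each replicate number, and bars are the mean and SD of 3 arrays. All 3 Fgfr1 and 2 of 3 Fgfr2 probe sets lay lower in NFFSE without overlap, both Fgfr3 probe sets overlapped, and Fgfbp1 lay higher in NFFSE.

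Fgfr2 encodes the receptor whose epithelial form binds the FGF7 and FGF10 supplied in both media, and its signal was lower in NFFSE. Its brightest probe set (1433489_s_at) read 1039, 1246 and 1153 in NFFSE-cultured cells, against 2641, 2469 and 3198 in NFFS. The groups did not overlap, and the highest NFFSE array lay below every NFFS array. The means were 1146 ± 104 in NFFSE and 2769 ± 381 in NFFS (SD, n = 3 each). This was a log2 difference of -1.27 (SE 0.13, 95% interval -1.55 to -0.99), or 2.41-fold lower, with an adjusted p of 5.89e-05 in limma over all genes. A further probe set (1420847_a_at) read 536, 637 and 673 in NFFSE and 1148, 1021 and 1525 in NFFS, again without overlap, and was 1.98-fold lower (adjusted p = 0.00175 over all probe sets in limma). The remaining probe set (1443211_at) was dim and disagreed. It read 31.6, 31.3 and 34.7 in NFFSE and 19.0, 38.8 and 49.5 in NFFS, a log2 difference of -0.03 with an interval of -1.13 to 1.07. When the signal of the gene was taken as the mean of its 3 probe sets, the log2 difference was -0.76 and still passed (adjusted p = 0.016 in limma). The arrays do not show which splice form of Fgfr2 the signal came from.

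In each of the 3 repeats, the culture in NFFSE read lower than its partner in NFFS on the 2 bright Fgfr2 probe sets. The ratio between the 2 media ranged between 1.98-fold and 2.77-fold lower on 1433489_s_at, and between 1.60-fold and 2.26-fold lower on 1420847_a_at. In bulk cultures such as these, fewer cells of a type and less RNA per cell cannot be told apart.

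Fgfr1, a receptor with broad use in mesenchyme and epithelium, was also lower in NFFSE, on each of its 3 probe sets. The brightest (1424050_s_at) read 237, 284 and 363 in NFFSE-cultured cells, against 781, 645 and 680.3 in NFFS. Even the highest NFFSE array lay well below the lowest NFFS array. The means of 295 ± 63.6 in NFFSE and 702 ± 70.4 in NFFS (SD, n = 3 each) gave a log2 difference of -1.27 (SE 0.18, 95% interval -1.67 to -0.87), or 2.41-fold lower, with an adjusted p of 4.95e-04 in limma. The second probe set (1425911_a_at) read 117, 158 and 160.0 in NFFSE and 400.0, 256 and 355 in NFFS. The third (1436551_at) read 91.0, 69.2 and 78.2 in NFFSE and 190.1, 140.0 and 182 in NFFS. Neither showed overlap, and their log2 differences were -1.21 and -1.10 (adjusted p = 0.00300 and 0.00881 in limma over all probe sets). The replicates of the first probe set were unequal in the size of the decrease, which ranged between 1.87-fold and 3.29-fold.

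Fgfr3, best known as a brake on bone growth, gave no call. Its brighter probe set (1421841_at) read 1044, 924 and 813 in NFFSE and 982, 798 and 816 in NFFS. The arrays of the media were interleaved, and the means were 927 ± 116 in NFFSE and 865 ± 101 in NFFS (SD, n = 3 each). The log2 difference was 0.10 (SE 0.14, 95% interval -0.21 to 0.40, adjusted p = 0.68 in limma), an interval that leaves out decreases of the size measured for Fgfr1 and Fgfr2. The dimmer probe set (1425796_a_at) read 131, 161 and 262 in NFFSE and 146, 170.4 and 188 in NFFS, a log2 difference of 0.08 with a wider interval of -0.51 to 0.67. With arrays centered on their medians, the log2 difference of Fgfr3 was 0.29 and again did not pass (adjusted p = 0.15 in limma).

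Fgfbp1, the carrier, showed the widest separation among the 10 genes. Its probe set (1419086_at) read 3677, 4549.9 and 4825 in NFFSE-cultured cells, against 481, 633 and 454 in NFFS. Every NFFSE array was several times brighter than every NFFS array. The means were 4351 ± 599 in NFFSE and 523 ± 96.7 in NFFS (SD, n = 3 each), a log2 difference of 3.06 (SE 0.15, 95% interval 2.72 to 3.41), or 8.36-fold, with an adjusted p of 9.93e-07 in limma. Within the repeats the ratio ranged between 7.18-fold and 10.6-fold. By the size of its increase Fgfbp1 ranked 114 of the 18193 genes. Only 1 probe set carried its name, so the array held no second reading of the gene.

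Fgfbp1 and Fgfr2 were, of the 10 genes, those called with the smallest p in each direction, and the bases just before their annotated starts are shown here for that reason. The promoter table matched 8 of the 10 genes, and it held no entry for Fgfr1 or Fgf1. The windows searched are the 250 bases before the start in RefSeq annotation of GRCm38.p6, read on the strand of the gene. The start that the table uses for Fgfbp1 lies inside the annotated gene (chr5:43978858-43981828), and only the 221 bases outside the gene, chr5:43981829-43982049 (minus strand), are shown. The Fgfr2 window is chr7:130266809-130267058 (minus strand), before the gene annotated at chr7:130162451-130266808.
Fgfbp1: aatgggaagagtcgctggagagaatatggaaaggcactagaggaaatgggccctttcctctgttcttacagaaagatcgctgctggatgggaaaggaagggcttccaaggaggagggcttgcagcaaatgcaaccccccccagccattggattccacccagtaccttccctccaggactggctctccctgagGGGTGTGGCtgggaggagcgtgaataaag
Fgfr2: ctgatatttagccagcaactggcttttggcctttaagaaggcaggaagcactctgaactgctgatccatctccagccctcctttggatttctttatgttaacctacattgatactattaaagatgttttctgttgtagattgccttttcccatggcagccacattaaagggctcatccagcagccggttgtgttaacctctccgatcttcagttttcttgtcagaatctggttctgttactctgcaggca
Capitals mark matches to 6 short motifs, which were chosen with the Fgfbp1 sequence in view and searched on both strands. The motif of the CACCC box, which KLF factors are known to bind, was GGGTGNGGC, and that of the GC box was GGGCGG. Sites of AP-1 factors were searched as TGANTCA, sites of C/EBP factors as TTGCNNAA and sites of ETS factors as CCGGAAG. The box that positions many transcription starts was searched as TATAAA. The Fgfbp1 window held 1 match, to the CACCC box, which lay 58 to 50 bases before the start that the table uses and which 4.57% of the 32851 promoter windows of the same length also held. The Fgfr2 window held none of these letters. G and C made up 53.6% of the Fgfbp1 window and 44.0% of the Fgfr2 window. A match is a description of letters and not evidence of binding.

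**Figure D2:**
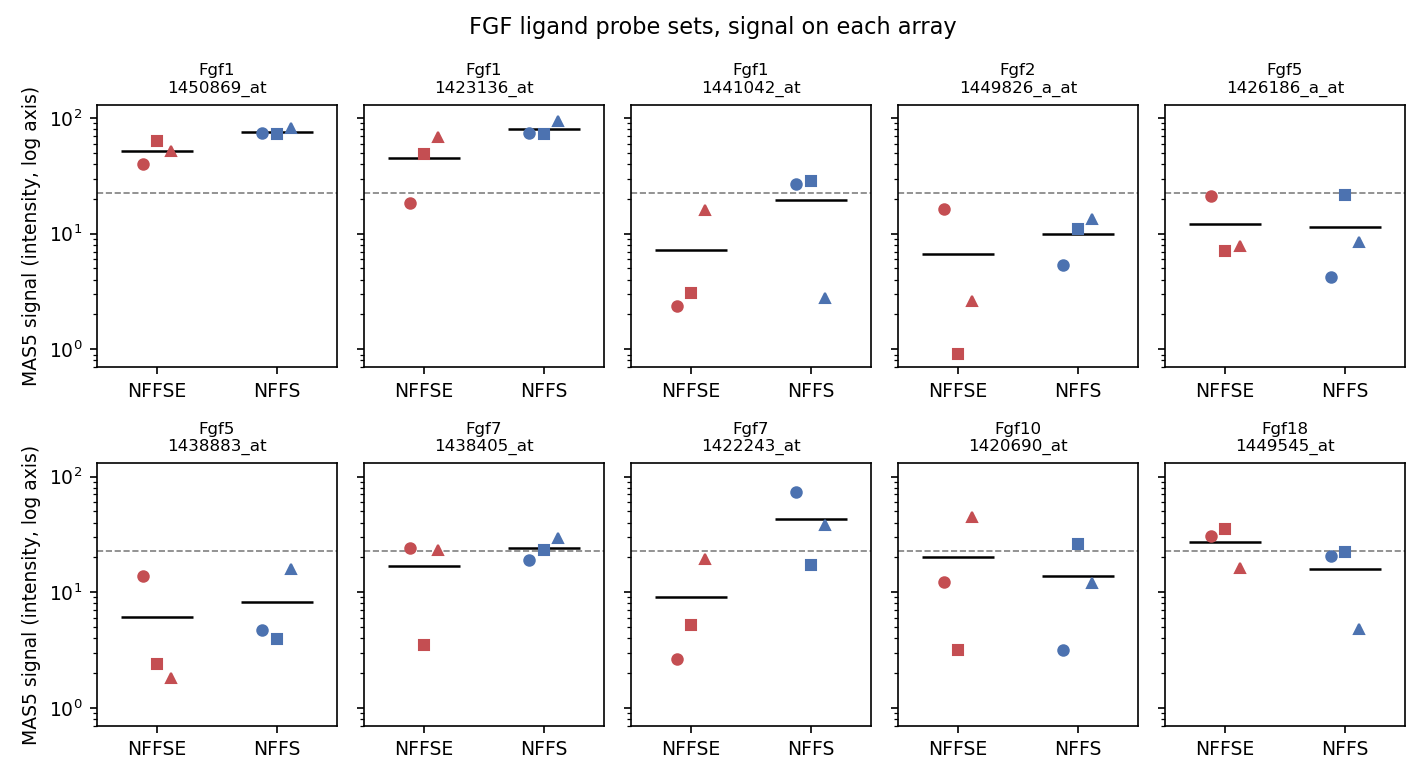
MAS5 signal (linear intensity on a log axis) of the 10 probe sets of Fgf1, Fgf2, Fgf5, Fgf7, Fgf10 and Fgf18 on the 3 NFFSE arrays (red, left) and the 3 NFFS arrays (blue, right). Points are single arrays, with a circle, a square and a triangle for replicates 1, 2 and 3, lines are means, and the dashed line is the background level of 22.7. Of the 60 values, 37 lie at or under that line.

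The 6 ligands were dim in both media. Their 10 probe sets read between 0.917 and 95.2, and 37 of 60 values were at or under 22.7, the highest signal of the TrpnX controls for a bacterial transcript, which is called background here. On 3 of the 10 probe sets all 6 arrays were at background, which was true of 13.8% of all probe sets, and on 1 none was. No ligand passed the test. The 95% intervals of the log2 differences reached from -1.63 to 2.03 for Fgf5 and from -2.13 to 2.68 for Fgf10, and those of Fgf2, Fgf7 and Fgf18 were also wide (-3.86 to 0.97, -2.67 to 0.85 and -0.61 to 2.59).

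Fgf1, a ligand that binds all FGF receptors, was above background on all 6 arrays on its main probe set. This probe set (1450869_at) read 40.3, 63.6 and 52.3 in NFFSE and 74.3, 72.9 and 81.9 in NFFS. All NFFSE arrays lay below all NFFS arrays, but the log2 difference of -0.58 (95% interval -1.32 to 0.17) did not pass (adjusted p = 0.26 in limma). A second probe set (1423136_at) read 18.3, 48.6 and 68.3 in NFFSE and 73.5, 72.6 and 95.2 in NFFS, without overlap, and did not pass either (adjusted p = 0.18 over all probe sets in limma). The third (1441042_at) was at background on all NFFSE arrays and on 1 NFFS array, with overlap.

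Fgf7 encodes the mesenchymal ligand that both media supplied as protein, and its probe sets differed in what they read. The one used for the gene (1438405_at) read 24.3, 3.49 and 23.1 in NFFSE and 18.9, 23.1 and 29.7 in NFFS. These values straddled background and overlapped, and the log2 difference of -0.91 (adjusted p = 0.47 in limma) was 0.01 without NFFSE replicate 2. The other (1422243_at) read 2.63, 5.22 and 19.3 in NFFSE, all at background, and 73.1, 17.1 and 38.4 in NFFS, of which 1 was at background. The groups overlapped by that array, and the difference, at least 1.60-fold lower in NFFSE, did not pass (adjusted p = 0.071 over all probe sets in limma).

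Fgf10, the other ligand supplied in the media, read 12.3, 3.18 and 45.1 in NFFSE and 3.18, 26.0 and 11.99 in NFFS. It was above background on 1 array of each medium. Fgf18, known from resting follicles, read 30.5, 34.9 and 16.2 in NFFSE and 20.6, 22.4 and 4.78 in NFFS. Its NFFS arrays were all at background, 2 of its NFFSE arrays were above it, the groups overlapped, and the test did not pass (adjusted p = 0.37 in limma). Fgf2, a ligand of broad use, and Fgf5, the signal that ends follicle growth, were at background on every array on all of their probe sets, up to 16.5 for Fgf2 and up to 21.8 for Fgf5. No fold is given for Fgf2, Fgf5 or Fgf10.

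**Figure D3:**
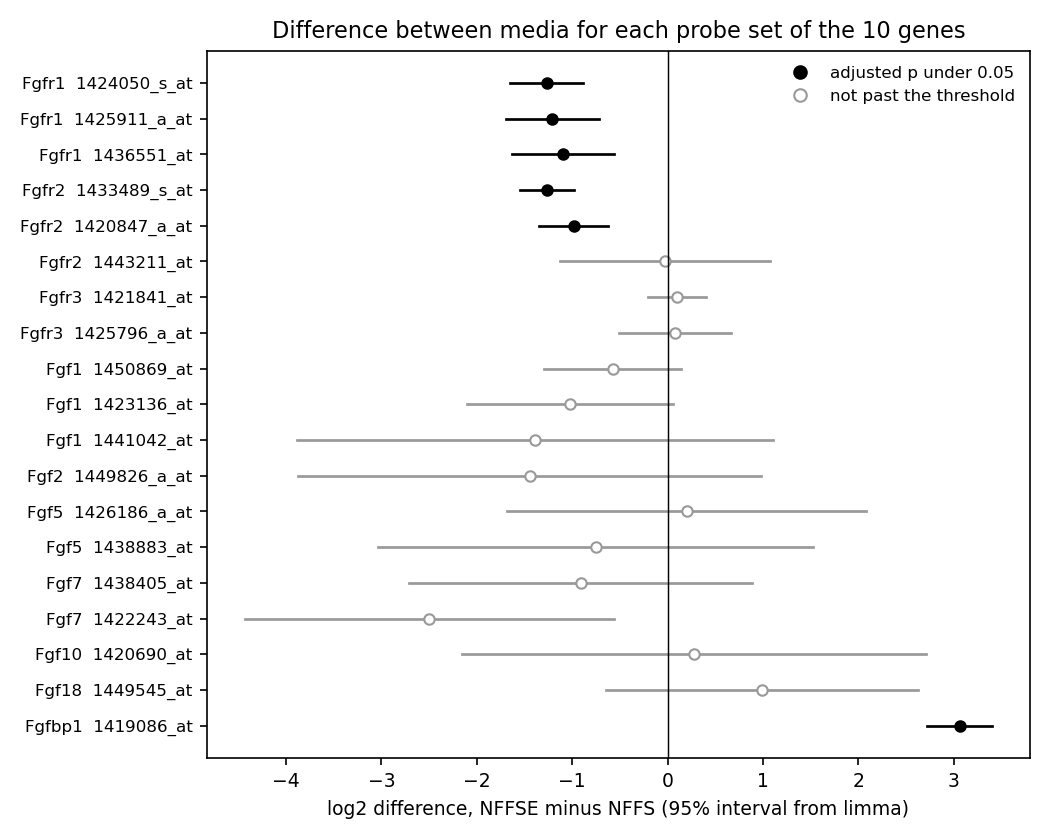
Log2 difference (NFFSE minus NFFS, x axis) of each of the 19 probe sets, with 95% intervals from limma fitted over all probe sets. Filled points passed an adjusted p of 0.05 over all probe sets. The 6 filled points belong to Fgfr1, Fgfr2 and Fgfbp1, and the intervals of the dim ligands are much wider.

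Markers of both epithelial and mesenchymal cells differed between the media along with Fgfr1 and Fgfr2. Over all genes, 11.0% were called higher and 15.2% lower. Of the 10 epithelial markers, the bulge genes Lhx2, Krt15 and Sox9 were lower, as Fgfr1 and Fgfr2 were. The log2 differences of these bulge genes were -1.86, -1.98 and -1.18 (adjusted p = 2.15e-05, 7.65e-05 and 0.0065 in limma). Sox9 did not pass with signals raised to background (0.074), without an intensity trend (0.07) or by the methods' t-test (0.12). Itgb4, Itga6, Krt14 and Epcam were higher (1.196, 1.28, 0.82 and 0.65), and Krt5, Trp63 and Cdh1 did not pass (0.34, -0.24 and -0.07). Krt14 and Epcam did not pass by the methods' t-test (0.067 and 0.057). Trp63 passed, as lower, with quantile normalization (0.0024), the mean of its probe sets (0.00052), signals raised to background (0.047) and the methods' t-test (0.036). Krt5 passed, as higher, with centered arrays (0.049), with dim genes left out (0.025) and without NFFS replicate 2 (0.028). Of 15 markers of fibroblasts and dermal papilla, 6 fell in NFFSE (Sparc, Vcan, Col6a1, Thy1, Col1a2 and Vim) and 0 rose, and their summed signal was 2898 to 2951 in NFFSE and 7439 to 8861 in NFFS. Sparc alone made up most of that sum. Sparc and Vcan had log2 differences of -0.87 and -1.68 with the mean of all their probe sets, in place of -1.51 and -3.54, and Col1a2 did not pass that way (adjusted p = 0.090). Vim did not pass with signals raised to background (0.062), without an intensity trend (0.053) or by the methods' t-test (0.097). The other 9 markers did not pass. Among them Corin was at background on all 6 arrays and Pdgfrb on 5, and Col1a1, Col3a1, Lum and Alx4 had log2 differences between -0.36 and 0.39. Dcn averaged 74.5 ± 27.3 in NFFSE and 128 ± 11.5 in NFFS, without overlap, Pdgfra 91.5 ± 21.8 in NFFSE and 49.4 ± 37.5 in NFFS, and Sox2 41.6 ± 18.4 in NFFSE and 18.5 ± 2.06 in NFFS (SD, n = 3 each). Dcn passed, as lower, when dim genes were left out (0.047). Of 4 smooth muscle and Schwann cell markers measured, Tagln and Acta2 were lower, with sums of 112 to 252 in NFFSE and 1026 to 1190 in NFFS. Acta2 did not pass as the mean of its probe sets (adjusted p = 0.47 in limma) or by the methods' t-test (0.071). Among 5 endothelial, 6 leukocyte, 5 melanocyte and 3 Merkel cell markers none passed. The leukocyte marker Ptprc did pass, as higher, without an intensity trend (0.036). The part of these cell types and of epithelial state in the decreases of Fgfr1 and Fgfr2 was not tested.

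The pathway around the receptors was read from lists of genes with known roles. These lists were chosen with earlier results of these data in view, so their counts and medians are a description only. For the counts in these lists, the shares over all genes were 11.0% called higher and 15.2% called lower. Of 12 secreted FGFs other than the 6 above, 11 did not pass, and Fgf21, a hormone-like FGF, was higher. Fgf21 read 45.6, 72.04 and 82.8 in NFFSE and 27.8, 28.4 and 11.0 in NFFS, at least 2.48-fold higher (adjusted p = 0.037 in limma), a call that was lost without NFFSE replicate 2 (0.11), NFFSE replicate 3 (0.12) or NFFS replicate 3 (0.10). Fgf21 also did not pass without an intensity trend (0.063) or by the methods' t-test (0.12). Fgf9 was counted as not passing, with a log2 difference of -0.46 on the probe set used (adjusted p = 0.26 in limma). Its other probe set (1438718_at) was lower, with means of 19.0 in NFFSE, where 1 array was at background, and 132 in NFFS (adjusted p = 0.010 over all probe sets in limma). Fgf9 also passed as lower with the mean of both probe sets (log2 difference -1.89, adjusted p = 0.012) and in the methods' t-test (0.031). Of 9 other receptors, co-receptors and carriers, Fgfrl1, a receptor without a kinase, was lower and 8 did not pass, among them Fgfr4 (log2 difference 0.65, adjusted p = 0.20 in limma). Fgfrl1 averaged 643 ± 30.9 in NFFSE and 857 ± 80.3 in NFFS (SD, n = 3 each), 1.33-fold lower, and its adjusted p of 0.033 became 0.23 with arrays centered on their medians. The call of Fgfrl1 was also lost without NFFSE replicate 1 (0.079), 2 (0.12) or 3 (0.059) and without NFFS replicate 1 (0.094) or 3 (0.11). Quantile normalization (0.083), the mean of its probe sets (0.14), no intensity trend (0.094) and the methods' t-test (0.057) lost this call too. The transmembrane partners Flrt2 and Flrt3 did not pass (log2 differences 0.39 and 0.37), but both did, as higher, with the replicate number as a block (adjusted p = 0.014 and 0.032 in limma) and without NFFSE replicate 1 (0.025 and 0.045).

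Among enzymes that build and edit heparan sulfate, 14 of 15 were measured, of which 6 were lower, 2 were higher and 6 did not pass. The median log2 difference was -0.41, where that of all genes was -0.011. Sulf1, which removes sulfate groups at the cell surface, read 143, 119.5 and 180.0 in NFFSE and 691, 567 and 679 in NFFS, 4.43-fold lower (adjusted p = 3.24e-05 in limma). Its relative Sulf2 was 2.35-fold lower, and Hs2st1 and Glce, which modify the uronic acids of the chain, were 2.14-fold and 1.79-fold lower. Another Glce probe set (1425876_a_at) averaged 134 in NFFSE and 137 in NFFS (adjusted p = 0.95 over all probe sets in limma). The mean of all Glce probe sets gave a log2 difference of -1.26 and still passed. Extl2 and Hs6st2 were also lower. By the methods' t-test Sulf2 (0.051) and Extl2 (0.066) did not pass. The mean of all probe sets of Sulf1, one of which was at background throughout, did not pass (adjusted p = 0.10), nor did that of Hs6st2 (log2 difference -0.30, adjusted p = 0.78). Hs6st2 also lost its call with centered arrays (0.11), quantile normalization (0.087) and the methods' t-test (0.051), and without NFFSE replicate 3 (0.071) or without NFFS replicate 3 (0.091). The 2 that were higher were Hpse, the heparanase that cuts the chains, and Hs3st1, a sulfotransferase. Hpse read 140.3, 173 and 146 in NFFSE and 13.4, 40.2 and 32.8 in NFFS, at least 4.91-fold higher (adjusted p = 0.0018 in limma). Hs3st1 was 2.86-fold higher (adjusted p = 0.014), a call that was lost without NFFSE replicate 2 (0.059) or NFFSE replicate 3 (0.065). The call was also lost with signals raised to background (0.09), without an intensity trend (0.076) and by the methods' t-test (0.13). With the replicate block Ndst2 also passed, as lower (0.048), and so did Ext2 without NFFS replicate 2 (0.0089).

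Inside the cell, 11 of 12 adaptors and effectors were measured, with 3 lower, 1 higher and 7 that did not pass, and a median log2 difference of -0.21. Gab1, a docking protein downstream of receptor kinases, averaged 1028 ± 82.7 in NFFSE and 3428 ± 657 in NFFS (SD, n = 3 each), 3.30-fold lower (adjusted p = 2.24e-05 in limma). All 3 of its probe sets were lower. Cbl, a ubiquitin ligase that marks active receptors for removal, was 1.63-fold lower and Sos1, a RAS activator, 1.44-fold lower, while the adaptor Grb2 was 1.44-fold higher. Cbl, Sos1 and Grb2 did not pass as the mean of their probe sets (adjusted p = 0.091, 0.44 and 0.064 in limma). Sos1 also lost its call with centered arrays (0.073), and without NFFSE replicate 2 (0.083), NFFS replicate 1 (0.059) or NFFS replicate 3 (0.057). Signals raised to background lost the call of Sos1 too (0.068). Without an intensity trend Cbl and Sos1 did not pass (0.053 and 0.1), nor did they by the methods' t-test (0.07 and 0.11).

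Feedback inhibitors and ETS factors that FGF-ERK signalling is known to induce were divided. In NFFSE 5 of the 9 were called lower, where 15.2% of all genes were. None was called higher and 4 did not pass, with a median log2 difference of -1.001. The inhibitors Spred1 and Spred2 were 2.67-fold and 2.62-fold lower, and Spry1 was 2.26-fold lower. Il17rd, a membrane inhibitor also known as Sef, read 43.7, 55.9 and 63.5 in NFFSE and 289.9, 248 and 231 in NFFS, 4.75-fold lower (adjusted p = 1.36e-04 in limma). Its other probe set had a log2 difference of -0.56 (adjusted p = 0.36 over all probe sets), and the mean of both gave -1.41, which still passed. The ETS factor Etv5 was 2.001-fold lower (adjusted p = 0.0011). Dusp6, a phosphatase of ERK, read 6323, 8208 and 10147 in NFFSE and 5076, 5719.9 and 8706 in NFFS, with overlap. Its log2 difference of 0.35 did not pass (adjusted p = 0.28) but passed with the replicate block (0.028), and it was higher in each repeat. Spry2, Spry4 and Etv4 had log2 differences of 0.27, 0.73 and -0.40 and did not pass, although Spry2 did, as higher, with centered arrays (0.046), and Etv4, as lower, without NFFS replicate 2 (0.020).

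The splicing factors that choose between the epithelial and mesenchymal forms of the receptors were 4 in number, of which 1 passed. Esrp2 averaged 1432 ± 98.8 in NFFSE and 929 ± 204 in NFFS (SD, n = 3 each), 1.56-fold higher (adjusted p = 0.012 in limma), but its other probe set differed by 0.16 on the log2 scale (adjusted p = 0.71 over all probe sets) and the mean of both did not pass (0.064). Ptbp1, a repressor of splicing, had a log2 difference of 0.24 on the probe set used and did not pass (adjusted p = 0.15), but it did, as higher, with centered arrays (0.038) and with the mean of its probe sets (0.47, adjusted p = 0.015). Esrp2 also did not pass with signals raised to background (0.063), without an intensity trend (0.081) or by the methods' t-test (0.11). Esrp1 had a log2 difference of -0.04 with an interval of -0.27 to 0.19. In the other lists, Crk, Flrt2 and Hs3st3b1 did not pass on the probe set used, but each had a further probe set that was higher (log2 differences 0.57, 1.01 and 2.30, adjusted p = 0.016, 0.046 and 0.0021 over all probe sets in limma).

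**Figure D4:**
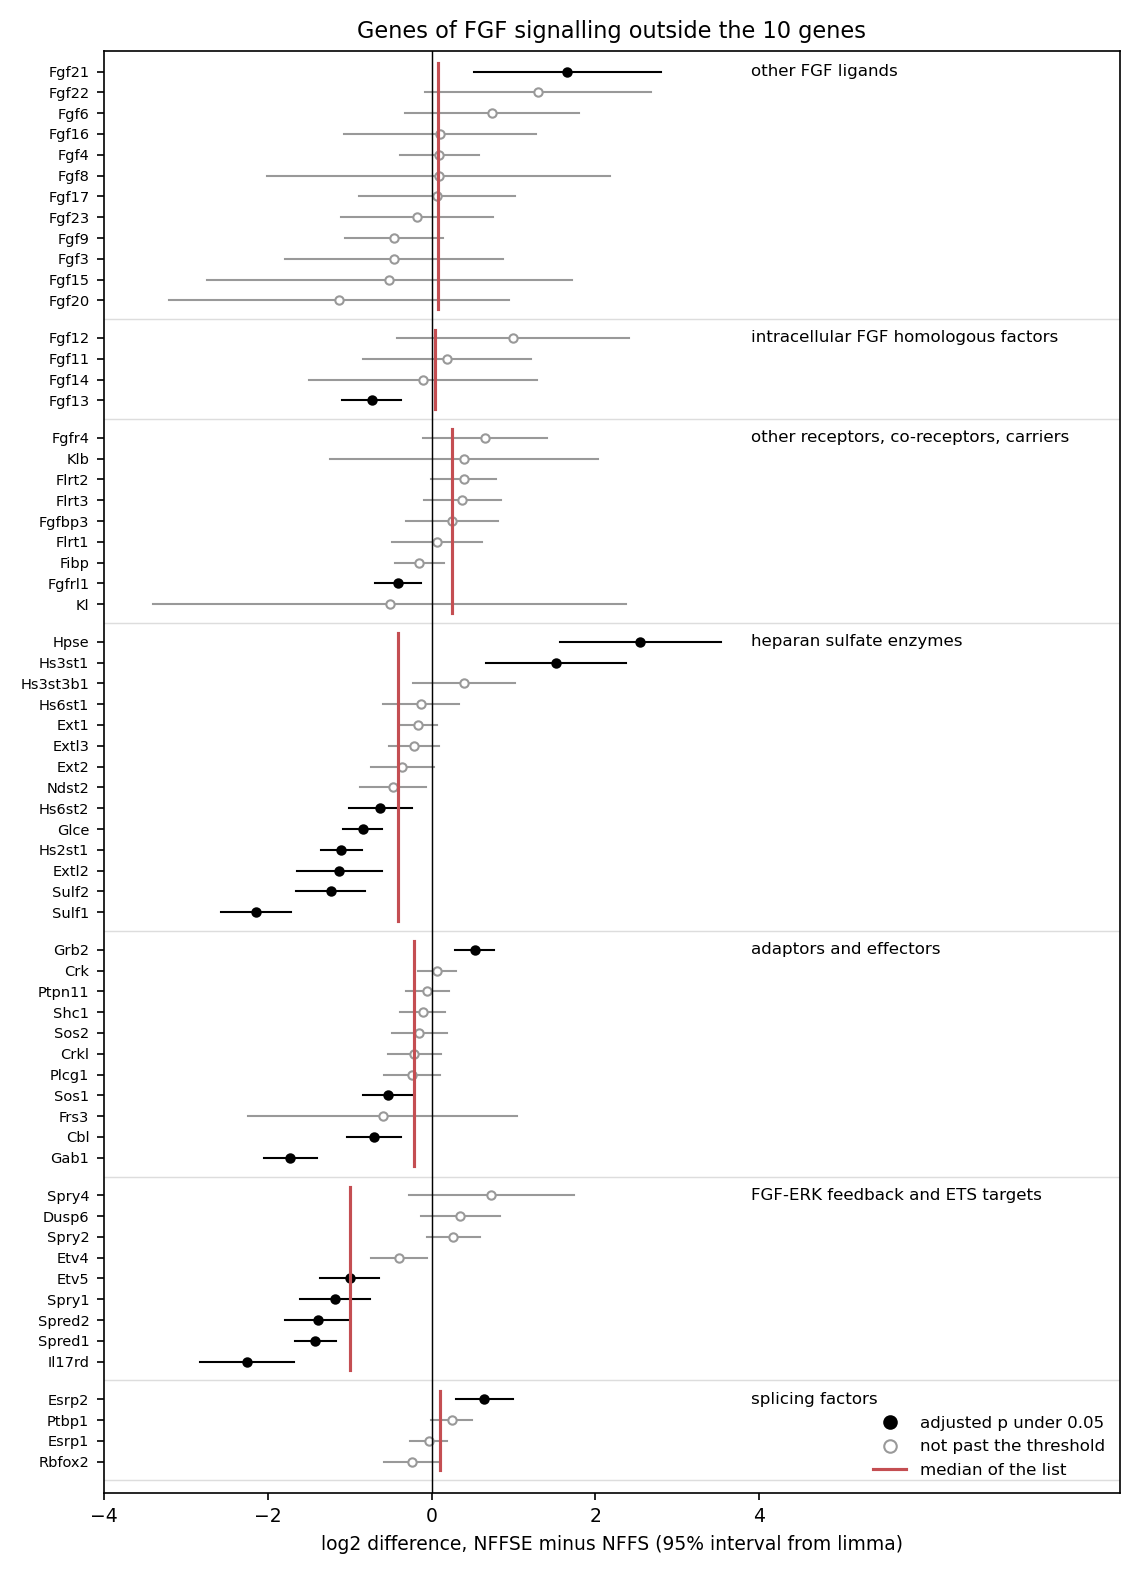
Log2 difference (NFFSE minus NFFS, x axis) of each measured gene in 7 lists of FGF signalling, with 95% intervals from limma. Filled points passed an adjusted p of 0.05 over all genes, and red lines are the medians of the lists. In the feedback and ETS list 5 of 9 genes passed to the left of 0, with the median at -1.001. Genes of other lists also passed to the left, and Hpse, Fgf21, Hs3st1, Esrp2 and Grb2 passed to the right. The lists were chosen with earlier results of these data known.

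Genes whose log2 signals followed those of a receptor or of Fgfbp1 most closely over the 6 arrays were found among 10916 genes, without a test. For Fgfr1 they were Ankrd11 (Pearson's r = 0.9998), Tug1 (0.9993) and Col5a1 (0.9988), and for Fgfr2 they were Cbs (0.9993), Gpc3 (0.9984) and Iftap (0.9982). For Fgfbp1 they were Cxcl2 (0.9991), Dlst (0.9990) and Il23a (0.9985). For Fgfr3 they were Chst15 (0.9904), Cep192 (0.9889) and Ino80b (0.9875). The number of genes with r over 0.95 was 602 for Fgfr1, 837 for Fgfr2 and 807 for Fgfbp1, whereas it was 28 for Fgfr3. All points of these correlations share the same 6 arrays and the split between the media.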

How the data were processed

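RNA of 3 NFFSE and 3 NFFS cultures had been hybridized to Affymetrix mouse genome arrays. The deposited values are MAS5 signals, an intensity on a linear scale that the authors computed and scaled to 1 trimmed mean (without the lowest and highest 2%), the version of MAS5 being not given in the sources used here. Background correction and summary were thus taken as deposited. The number of arrays limits the precision. Sources differ on the RNA kit (RNeasy Plus micro or RNeasy mini).

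Of 45101 probe sets, 64 controls were left out, 34945 had 1 gene symbol in the platform annotation, 932 had several and 9160 had none. For each gene the probe set of the highest mean log2 signal stood for it. The model was fitted to log2 signals in limma 3.58.1 (R 4.3.3; intensity trend, medium as the only term), with Benjamini-Hochberg adjustment over all 18193 genes or, where stated, all 45037 probe sets, at a threshold of 0.05. Fold changes are antilogs of the log2 differences. Background was the highest of 18 TrpnX values. In the lower medium, arrays at background were raised to it, which makes the fold a lower bound, and none is given where this was under 1. The script was tested on simulated data made from the brighter probe sets, with planted differences larger than those of Fgfr1 and Fgfr2. That test left out the dimmest probe sets.

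The text names all 10 genes, with every probe set, from each list the genes past the threshold (the 4 with the smallest p and those a count needs), and for 4 genes the 3 with the highest r among genes at or above the 40th percentile of mean signal. Further genes were named after their values were seen. The members and lists were chosen with earlier results of these data known. Replicates with the same number were divided from the same cells according to the series design, and their deviations from the medium means correlated with r of 0.277, 0.132 and 0.147. The labels do not say how many animals gave each culture. Promoters came from RefSeq (GRCm38.p6). Alternatives were arrays centered on their medians, quantile normalization, the mean of all probe sets, 16 added to the signals, signals raised to background, dim genes left out, no trend, the methods' t-test, the replicate block, and each array left out.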

Additional observations from a re-analysis of the deposited data

How the results depend on the processing

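The 3 calls and 7 missing calls among the 10 genes were the same in each of 144 values over 15 alternatives: 1 gene was higher and 2 were lower each time. The ligands had no value when dim genes were left out. The replicate block gave the same counts for the 10 genes (1 higher and 2 lower) and a log2 difference of -1.27 for Fgfr1 (adjusted p = 4.39e-04 in limma), and beyond Dusp6, Flrt2, Flrt3 and Ndst2 it changed no call in the lists. The median log2 difference over the members, -0.24, includes the dim ligands. It was -0.59 over the 4 genes left when dim genes were left out, and it ranged between -0.63 (without NFFSE replicate 3) and 0.054 (without NFFSE replicate 2) when 1 array was left out. Across all genes, 2002 were higher and 2771 lower in the fit used, against 1323 and 1928 without an intensity trend, 1262 and 1702 by the methods' t-test after Benjamini-Hochberg adjustment, and 3013 and 1974 with centered arrays. The 3 arrays of each medium cannot show changes of ligands at background.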

Other observations

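The 4 intracellular FGF homologous factors, which resemble FGFs but are not secreted and bind sodium channels, were read apart from the ligands. Fgf13 was lower in NFFSE. It read 267, 261 and 211 in NFFSE and 405, 406 and 407 in NFFS, 1.66-fold lower without overlap (adjusted p = 0.0073 in limma), but its other probe set had a log2 difference of -0.21 and the mean of both did not pass (adjusted p = 0.13). Fgf11, Fgf12 and Fgf14 were dim and did not pass.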
